A study of Mus musculus with 12 samples.

Results

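The 36 genes described here encode proteins of the endoplasmic reticulum (ER) and of the early secretory pathway. They were taken by name from the array annotation, out of 34796 gene names on the array, and every one of the 36 had at least 1 probe bright enough to be tested. RNA came from aortas of male C57BL/6J mice aged 11 to 14 weeks, with 1 array per mouse and 3 mice in each of 4 groups, all sampled on day 3 from 10 mm of aorta above the branch of the right renal artery. The DMSO group received only dimethylsulfoxide, the vehicle, and the rapamycin group received rapamycin, an inhibitor of the growth kinase mTOR, at 2 mg/kg/day. The BA+DMSO and BA+rapamycin groups received the same injections during an infusion of 150 mg/kg/day of BAPN (beta-aminopropionitrile, an inhibitor of collagen crosslinking) together with 1 ug/kg/min of AngII (angiotensin II), a challenge used to produce aortic dissection. The series record calls the first group DMSO alone, although its sample titles carry the prefix Pre.

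A protein that will be secreted enters the ER through the Sec61 channel, is folded there by chaperones and disulphide isomerases, leaves in vesicles coated with COPII, and is sorted at the Golgi. When unfolded proteins accumulate, the sensors Ern1 (IRE1) and Atf6 and the transcription factor Xbp1 raise many of these genes, which is known as the unfolded protein response. Smooth muscle cells and fibroblasts of the aorta secrete collagen, whose folding needs its own chaperone, Serpinh1.

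Many genes of the unfolded protein response are known to carry the ER stress response element (ERSE), the letters CCAAT and CCACG with any 9 bases between them, near the start of transcription. RefSeq promoter windows on GRCm38.p6, from 250 bases before to 50 bases after the annotated start, were found for 30 of the 36 genes. Hyou1, Manf, Atf6, Sec61a1, Ssr2 and Kdelr2 had no entry. Read on both strands, the ERSE was present in 8 of the 30, which is 26.7%, against 0.137% of all 27025 genes with a window. The 8 were Hspa5, Hsp90b1 with 2 matches, Dnajc3, Creld2, Calr, Canx, Pdia6 and Syvn1. The shorter ERSE-II, ATTGG and CCACG with any 1 base between them, was found in Dnajb11 and Herpud1 and in 0.0444% of all genes. Another pattern, TGACGTGG, which can bind Atf6 and Xbp1, was found in Sec24d and Kdelr3 and in 0.714% of all genes. No match overlapped a match to another of the 3 patterns. A match is a description of the sequence and not a measured binding site.

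**Figure D1:**
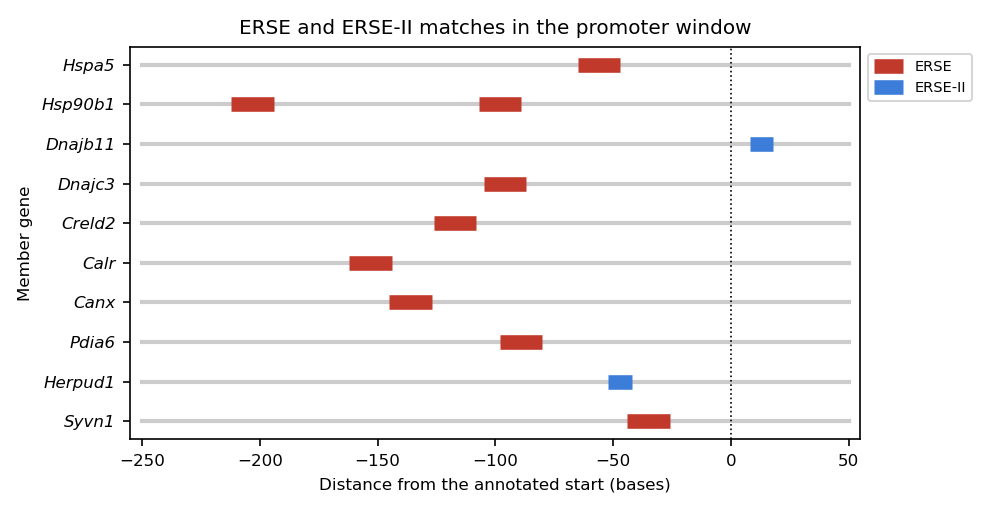
Position of ERSE matches (red) and ERSE-II matches (blue) in the promoter windows of 10 genes, in bases from the annotated start, with the window drawn in grey. Hspa5 has its match from 65 to 47 bases before the start, Hsp90b1 has 2 matches, and the match of Dnajb11 lies after the start.

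The promoter of Hspa5, the gene most widely used as a readout of ER stress, is shown because the ERSE lies close to its start. The 250 bases before the start (plus strand, chr2:34771840-34772089, GRCm38.p6) read as follows, with the fixed letters of the ERSE in capitals.
Hspa5: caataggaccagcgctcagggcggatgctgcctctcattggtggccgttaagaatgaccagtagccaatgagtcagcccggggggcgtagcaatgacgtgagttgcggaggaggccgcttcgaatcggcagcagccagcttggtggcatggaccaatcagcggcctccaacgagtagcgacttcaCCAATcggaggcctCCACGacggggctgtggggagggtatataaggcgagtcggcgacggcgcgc

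Stretches around the match are shown for 3 genes that were higher after the challenge (Creld2, Pdia6 and Dnajb11) and 3 that did not pass the test in any comparison of all arrays (Dnajc3, Canx and Herpud1). They are written in the direction of the gene, with the fixed letters of the ERSE or ERSE-II in capitals. Creld2 (plus strand, chr15:88819500-88819558) carries the ERSE on the opposite strand, so that its letters read CGTGG and then ATTGG. Pdia6 is on chr12:17266471-17266529 (plus strand), Dnajb11 on chr16:22857843-22857872 (plus strand), Dnajc3 on chr14:118937807-118937865 (plus strand), Canx on chr11:50325780-50325838 (minus strand) and Herpud1 on chr8:94386357-94386407 (plus strand).
Creld2: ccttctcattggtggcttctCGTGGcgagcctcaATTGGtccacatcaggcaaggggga
Pdia6: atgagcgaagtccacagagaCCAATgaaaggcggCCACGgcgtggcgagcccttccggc
Dnajb11: ccggcggcgATTGGcCCACGcctggctgct
Dnajc3: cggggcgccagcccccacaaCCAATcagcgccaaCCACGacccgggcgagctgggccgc
Canx: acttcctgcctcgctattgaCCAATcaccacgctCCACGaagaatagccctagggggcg
Herpud1: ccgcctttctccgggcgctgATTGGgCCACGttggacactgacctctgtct

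Levels are given as log2 of the processed signal relative to the 75th percentile of the same array, so 1 unit is a doubling and 0 is the signal of that percentile. A probe's brightness depends on its sequence, so levels are compared between groups and not between genes. A gene was called where the adjusted p of the limma fit was below 0.05. Of the 36 genes, 35 were well above background on all 12 arrays, and Ero1l on 2 of 3 arrays in BA+DMSO and in BA+rapamycin. The 3 DMSO arrays and 1 rapamycin array lay on slide 1, and all challenged arrays and the other rapamycin arrays on slide 2. Array brightness, the 75th percentile of processed signal, was lower after the challenge: it ran from 247 to 314 on DMSO arrays and 287 to 376 on rapamycin arrays, against 85.4 to 282 on BA+DMSO arrays and 81.0 to 121 on BA+rapamycin arrays. All 6 smooth muscle markers (Acta2, Myh11, Tagln, Cnn1, Smtn and Des) were well above background on all 12 arrays. Array BA+DMSO 2 stood apart from BA+DMSO 1 and 3 for many of the genes, and the counts and several differences that rest on it are given with and without it.

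**Figure D2:**
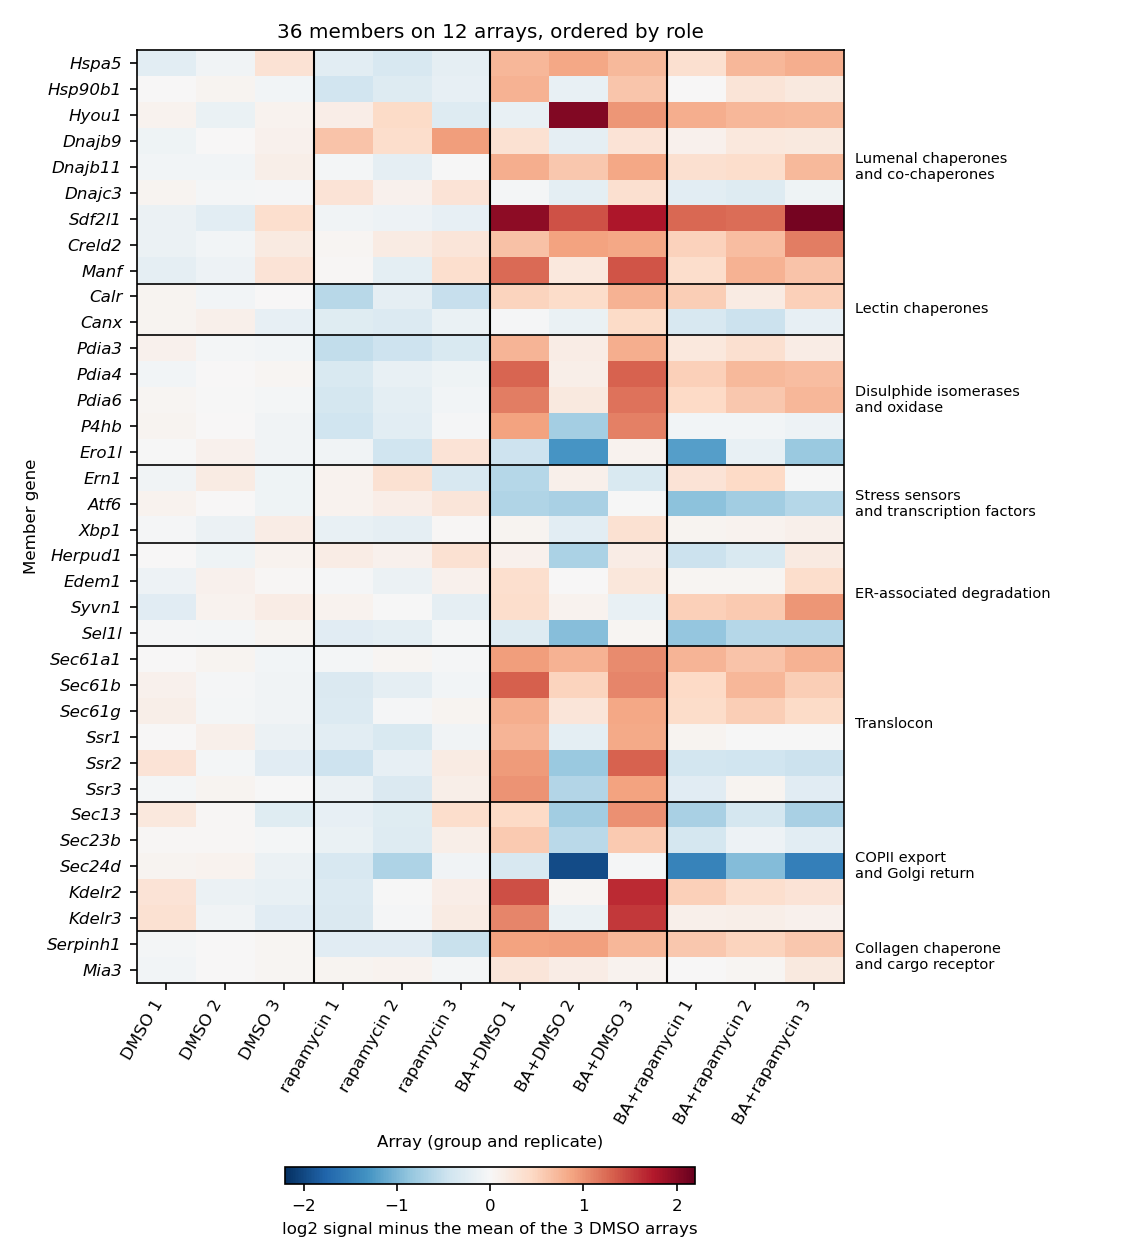
Log2 signal of the 36 genes (rows, ordered by role) on the 12 arrays (columns), each minus the mean of the 3 DMSO arrays of that gene; red is higher and blue lower. Hspa5, Sdf2l1, Sec61a1 and Serpinh1 are red on all 3 BA+DMSO arrays, while P4hb, Ssr2, Ssr3, Sec13 and Sec23b are red on BA+DMSO 1 and 3 and blue on BA+DMSO 2.

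The BAPN + AngII challenge in vehicle-treated mice (BA+DMSO minus DMSO) was accompanied by higher RNA of 11 of the 36 genes and lower RNA of none. Over all 20026 genes tested, 21.4% were called in either direction, 10.4% higher and 11% lower. The 11 were the lumenal chaperones and co-chaperones Hspa5, Dnajb11, Sdf2l1, Creld2 and Manf, the isomerases Pdia4 and Pdia6, the 3 subunits of the Sec61 channel, and the collagen chaperone Serpinh1. The median difference over the 36 genes was 0.44, and 30 of them lay above 0, beside a median of -0.023 and 48.6% of genes above 0 over all genes tested. Groups did not overlap for 13 of the 36 with BA+DMSO above DMSO and for none below it, against 15.4% above and 20.1% below over all genes. The stress sensors, Xbp1 and the 4 genes of ER-associated degradation did not pass the test.

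With the slide as a fixed block none of the 36 was called for the challenge and the median was 0.29, a fit in which rapamycin 1 alone links the slides. Since no slide held both DMSO and BA+DMSO arrays, challenge and slide cannot be told apart in this comparison. The count also moved when single arrays were left out, to 5 without DMSO 1, 4 without DMSO 2, 7 without DMSO 3, 7 without rapamycin 2 and 21 without BA+DMSO 2. Sdf2l1, Sec61a1, Sec61b and Serpinh1 kept their call in all 12 such fits. The count fell to 1 when arrays were scaled to their median, where 5.22% of all genes were called higher and 9.6% lower, and to 1 when only the DMSO and BA+DMSO arrays were fitted. A block that pairs the 2 DMSO and 2 rapamycin arrays whose titles share a date and a number also left 1 call.

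**Figure D3:**
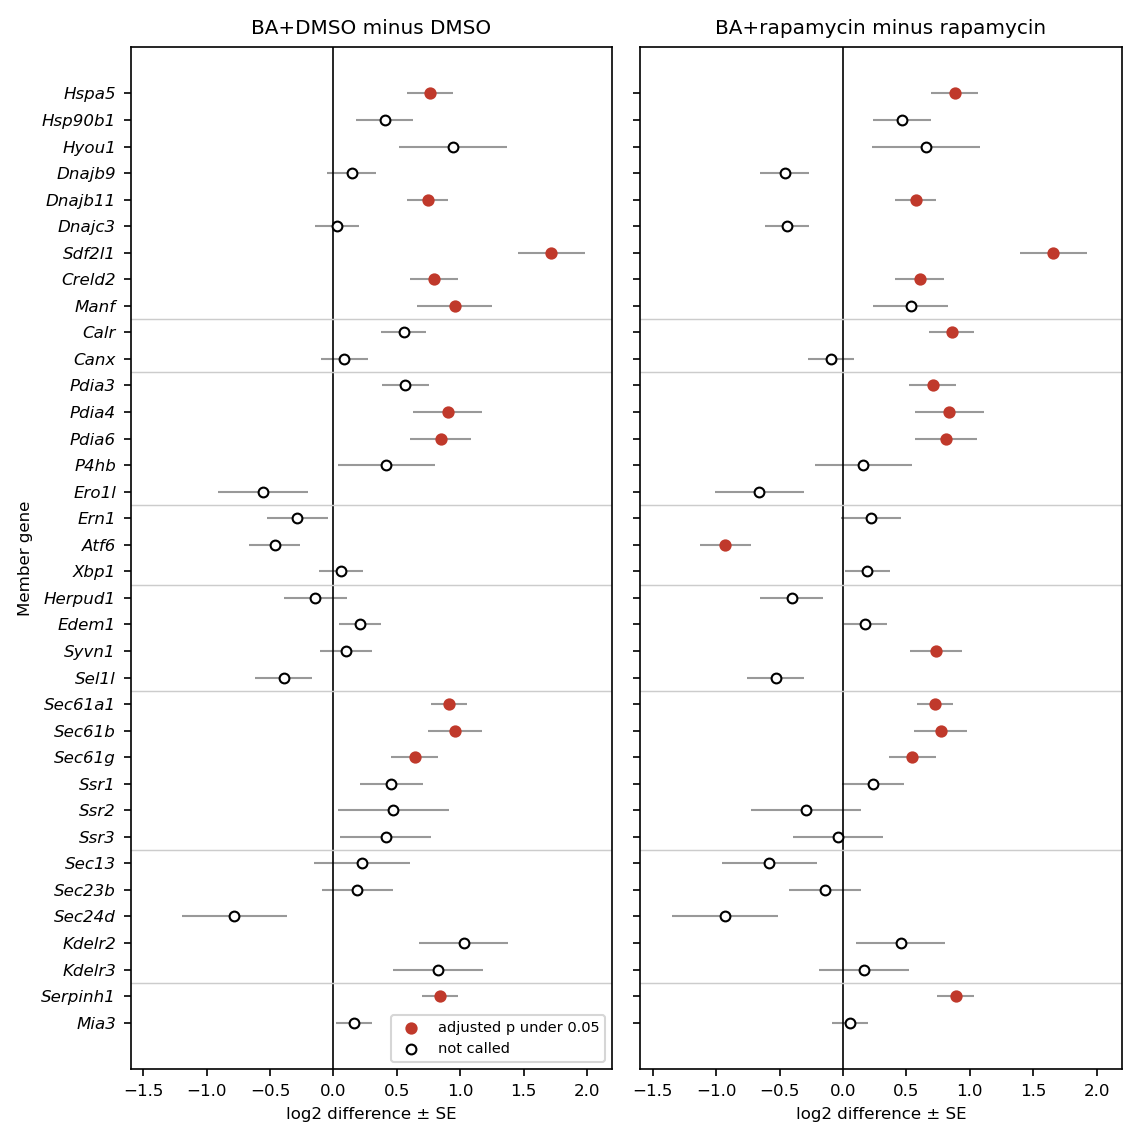
Log2 difference with its standard error for each of the 36 genes, after the challenge on vehicle (left) and under rapamycin (right); filled points passed an adjusted p of 0.05. On the left 11 genes are filled, all above 0, and on the right 14 are filled, with Atf6 alone below 0.

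Among the lumenal chaperones, Hspa5 (BiP), the HSP70 of the ER, read 6.09, 6.23 and 6.63 on the DMSO arrays and 7.04, 7.16 and 7.03 on the BA+DMSO arrays. The 3 challenged values lay close together and above every DMSO value. The difference was 0.76 (SE 0.18, adjusted p = 0.0168), or 1.70-fold. Its probe lies at chr2:34631913-34631972 on mm9, the build of the array files. Without DMSO 1 or without DMSO 2 the call of Hspa5 was lost, with differences from 0.65 to 0.92 over the 12 single omissions.

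Sdf2l1, a partner of Hspa5 in the ER lumen, had the largest difference of the 36 genes. It read -0.01, -0.12 and 0.49 in DMSO and 2.09, 1.52 and 1.90 in BA+DMSO, so the groups were separated by more than 1 unit. The difference was 1.72 (SE 0.26, adjusted p = 0.00196), or 3.29-fold, at a probe on chr16:17130426-17130485 (mm9). The co-chaperone Dnajb11, which delivers substrates to Hspa5, read 3.20, 3.20 and 3.39 in DMSO and 4.05, 3.85 and 4.11 in BA+DMSO. Its difference was 0.74 (SE 0.16, adjusted p = 0.0106), and the call was lost without DMSO 2, at 0.71.

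Creld2, a stress-induced ER protein measured by 10 spots of 1 probe, read 4.35, 4.43 and 4.68 in DMSO and 5.13, 5.37 and 5.33 in BA+DMSO. The groups did not overlap, and the difference was 0.80 (SE 0.19, adjusted p = 0.0157). As for Hspa5, the call was lost without DMSO 1 or DMSO 2. Manf, a secreted stress-induced factor, read 2.61, 2.69 and 3.11 in DMSO and 4.05, 3.04 and 4.20 in BA+DMSO. BA+DMSO 2 lay within the DMSO range, so the groups overlapped. The difference was 0.96 (SE 0.30, adjusted p = 0.0421) and kept its call in only 1 of 12 single omissions, that of BA+DMSO 2, where it was 1.32.

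The other 4 lumenal genes did not pass the test. Hyou1, a large HSP70 relative, read -2.24, -2.46 and -2.24 in DMSO and -2.49, -0.29 and -1.34 in BA+DMSO. Its 3 challenged values were far apart, and here BA+DMSO 2 was the highest array and not the lowest. Hsp90b1 (GRP94) read 6.74, 5.81 and 6.58 in BA+DMSO against 5.90 to 6.03 in DMSO, with BA+DMSO 2 below all 3 DMSO arrays. Differences were 0.94 (SE 0.42, adjusted p = 0.138) for Hyou1, 0.40 (SE 0.23, adjusted p = 0.227) for Hsp90b1, 0.14 for the co-chaperone Dnajb9 and 0.029 for Dnajc3. Without BA+DMSO 2, Hsp90b1 was called, at 0.69 (adjusted p = 0.00601). Hyou1 at 0.40 (adjusted p = 0.36), Dnajb9 at 0.315 and Dnajc3 at 0.15 were not called in that fit.

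Lectin chaperones hold glycoproteins until they are folded. Calr (calreticulin), the soluble member, read 5.40, 5.27 and 5.34 in DMSO and 5.82, 5.74 and 6.10 in BA+DMSO. The groups did not overlap, and the difference of 0.55 (SE 0.18) had an adjusted p of 0.0503, just above the threshold. Canx (calnexin), its membrane-bound relative, read 5.09, 5.14 and 4.85 in DMSO and 5.0, 4.88 and 5.45 after the challenge, a difference of 0.085 (SE 0.18, adjusted p = 0.773).

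Disulphide isomerases form and exchange the disulphide bonds of new proteins. Pdia4 read 1.66, 1.73 and 1.77 in DMSO and 3.00, 1.85 and 3.02 after the challenge, a difference of 0.90 (SE 0.27, adjusted p = 0.0393). Pdia6 read 5.95, 5.91 and 5.88 in DMSO and 7.04, 6.13 and 7.11 after the challenge, a difference of 0.85 (SE 0.24, adjusted p = 0.0325). In both genes BA+DMSO 1 and 3 stood more than 1 unit above DMSO and BA+DMSO 2 just above it. Pdia4 kept its call only without BA+DMSO 2, at 1.29, and Pdia6 kept its call in 6 of 12 single omissions. A second Pdia6 probe gave 0.69 and was not called.

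Pdia3, the partner of the lectin chaperones, lay above DMSO on every BA+DMSO array and missed the threshold at 0.57 (SE 0.19, adjusted p = 0.0531). P4hb, the main isomerase and a subunit of collagen prolyl hydroxylase, read 4.72, 4.67 and 4.58 in DMSO and 5.54, 3.91 and 5.77 in BA+DMSO. It was thus above DMSO on BA+DMSO 1 and 3 and below it on BA+DMSO 2, and the difference of 0.42 (SE 0.38, adjusted p = 0.467) did not pass. Ero1l, the oxidase that recharges the isomerases, was at -0.55 (SE 0.35, adjusted p = 0.288). Without BA+DMSO 2, Pdia3 (0.77, adjusted p = 0.0026) and P4hb (1.00, adjusted p = 0.00166) were called, and Ero1l stood at -0.19.

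The genes that sense stress and switch on this pathway had small or negative differences. Xbp1 read 5.69, 5.58 and 5.87 in DMSO and 5.78, 5.49 and 6.06 in BA+DMSO, and the DMSO range lay inside the challenged range (difference 0.060, SE 0.18, adjusted p = 0.834). An expression array does not resolve the splicing by which Xbp1 is activated. Ern1 read 0.22, 0.47 and 0.20 in DMSO and -0.34, 0.41 and -0.03 in BA+DMSO (difference -0.28, SE 0.24, adjusted p = 0.425). Atf6 read 0.17, 0.10 and 0.00 in DMSO and -0.57, -0.63 and 0.08 in BA+DMSO (difference -0.46, SE 0.20, adjusted p = 0.121).

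Of the ER-associated degradation genes, which return misfolded proteins to the cytosol, Herpud1 was at -0.14, Edem1 at 0.21, the ubiquitin ligase Syvn1 at 0.099 and its adaptor Sel1l at -0.39. Their adjusted p values lay between 0.241 and 0.759. For Herpud1 and Sel1l the lowest of all 6 arrays was BA+DMSO 2, at 2.97 and 0.39. Without that array the difference of Herpud1 turned to 0.13 and that of Sel1l moved to -0.12, and neither was called.

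The Sec61 channel passes new chains into the ER, and its 3 subunits were all called. Sec61a1, the pore, read 5.18, 5.24 and 5.12 in DMSO and 6.10, 5.95 and 6.23 in BA+DMSO, at chr6:88453605-88453664 (mm9). Both groups were tight and well separated, with a difference of 0.91 (SE 0.14, adjusted p = 0.0021), or 1.88-fold. Sec61b read 5.64, 5.52 and 5.48 in DMSO and 6.85, 6.04 and 6.63 after the challenge, a difference of 0.96 (SE 0.21, adjusted p = 0.0107), while 2 further Sec61b probes gave 0.77 and 0.39 and were not called. Sec61g read 6.31, 6.14 and 6.10 in DMSO and 6.98, 6.46 and 7.04 after the challenge, a difference of 0.64 (SE 0.19, adjusted p = 0.035) that kept its call in 6 of 12 single omissions, with 0.82 without BA+DMSO 2.

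Ssr1, Ssr2 and Ssr3, subunits of the complex that sits beside the channel, had BA+DMSO 1 and 3 above all DMSO arrays and BA+DMSO 2 below them. Ssr2 read 3.44, 3.11 and 2.90 in DMSO and 4.08, 2.34 and 4.44 in BA+DMSO. The 3 differences were 0.46, 0.47 and 0.41 in that order, with adjusted p values from 0.213 to 0.472. Without BA+DMSO 2 all 3 were called, at 0.79, 1.11 and 0.94. Other probes disagreed: a second Ssr3 probe was called higher at 1.04 (adjusted p = 0.0064), and another Ssr1 probe was called lower at -0.93 (adjusted p = 0.0336).

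None of the 5 genes of vesicle export and Golgi return was called. Kdelr2, a receptor that brings escaped chaperones back to the ER, read 2.2, 1.78 and 1.73 in DMSO and 3.32, 1.94 and 3.54 in BA+DMSO. Its difference of 1.03 (SE 0.35, adjusted p = 0.0602) was the second largest of the 36. Kdelr3 was at 0.82 (SE 0.36, adjusted p = 0.124). The COPII coat genes Sec13 and Sec23b were at 0.23 and 0.19. Without BA+DMSO 2 they stood at 0.72 (adjusted p = 0.0629) and 0.58 (adjusted p = 0.0191). Sec24d, the COPII subunit that selects cargo, read 2.81, 2.83 and 2.62 in DMSO and 2.40, 0.78 and 2.74 in BA+DMSO, so that BA+DMSO 2 stood far below the rest. Its difference was -0.78 (SE 0.42, adjusted p = 0.205), and -0.19 without BA+DMSO 2.

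Serpinh1 (HSP47), the chaperone of collagen, read 6.43, 6.48 and 6.52 in DMSO and 7.35, 7.39 and 7.20 in BA+DMSO, at chr7:106493971-106494030 (mm9). The spread within each group was a small part of the gap, and the difference was 0.84 (SE 0.14, adjusted p = 0.00329), or 1.79-fold. Mia3 (TANGO1), which loads collagen into vesicles, read 3.97, 4.05 and 4.08 in DMSO and 4.29, 4.19 and 4.10 in BA+DMSO. Its difference of 0.16 (SE 0.14, adjusted p = 0.444) did not pass, although every challenged array lay above every DMSO array. A second Mia3 probe gave 0.78 (adjusted p = 0.0888) for the challenge, and was called higher under rapamycin at 1.06 (adjusted p = 0.0174), where the brighter probe stood at 0.052.

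BA+DMSO 2 was the lowest of the BA+DMSO arrays for 29 of the 36 genes, against 43.5% of all genes tested. For 13 of the 36, BA+DMSO 1 and 3 lay above the whole DMSO range while BA+DMSO 2 lay within or below it, a pattern of 11.3% of all genes, and for another 13 all 3 arrays lay above it. The median of the 36 genes relative to the DMSO mean was 0.69, 0.024 and 0.78 on BA+DMSO 1, 2 and 3. For the 5 export genes these medians were 0.58, -0.59 and 1.00, and for the lumenal chaperones 0.73, 0.59 and 0.85. Hspa5, Creld2 and Serpinh1 were instead slightly higher on BA+DMSO 2 than on the mean of the other two arrays, by 0.13, 0.14 and 0.11.

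Without BA+DMSO 2, 21 of the 36 genes were called higher for the challenge, where 14.8% of all genes were, and the 21 included all 11 of the first fit. Genes of vesicle export and of the Ssr complex were then among them, with Kdelr2 at 1.52, Kdelr3 at 1.31, Ssr2 at 1.11, Ssr3 at 0.94 and Sec23b at 0.58, as was the isomerase P4hb at 1.00. Leaving out this array was a choice made with its values in view. Its 75th percentile signal was 85.4, against 149 and 282 on BA+DMSO 1 and 3, and the part of this lower signal in its values was not tested. That signal lay within the range of the BA+rapamycin arrays, 81.0 to 121, and those of BA+DMSO 1 and 3 lay above it. With array brightness as a covariate 18 of the 36 were called higher for the challenge and none lower, where 12.5% and 7.62% of all genes were, and 10 of the 18 were among the first 11.

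Cell type markers differed between the same arrays. All 4 proliferation markers (Mki67, Top2a, Cdk1 and Ccnb1) and 5 of 6 macrophage markers were called higher after the challenge. Top2a and Cdk1 were not well above background on any DMSO array, so of this list the values are given for Mki67, which was above it on all 12 arrays. Mki67 read -1.08, -0.90 and -0.80 on the DMSO arrays and 4.35, 2.35 and 3.45 on BA+DMSO 1, 2 and 3, BA+DMSO 2 being the lowest of the 3. The macrophage list stood at 2.75, 1.33 and 2.24 on the same BA+DMSO arrays, from -0.37 to 0.61 in DMSO and from 1.92 to 1.97 in BA+rapamycin. Of the fibroblast markers 2 of 6 were called higher, Col1a1 (0.99) and Col3a1 (0.85), and the other 4, not called, were Lum at 1.13, Dpt at 0.58, Pdgfra at 0.098 and Dcn at 0.074. Of the endothelial markers 1 of 4 was, Kdr (1.28), and 2 of the 4 lay below 0, Pecam1 and Tek, both at -0.28. Neutrophil Ly6g (1.87), 1 of 3 tested, and adipocyte Ucp1, 1 of 4 and not well above background in DMSO, were also called higher. On BA+DMSO 1, 2 and 3 the fibroblast list stood at 1.35, -0.27 and 0.50, the neutrophil list at 0.10, 2.01 and 2.80 and the endothelial list at 0.70, -0.28 and 0.15. The adipocyte list, whose 4 markers all lay above 0 with a median of 1.77, stood at 1.87, 2.93 and 0.71 and was highest on BA+DMSO 2. The smooth muscle list, with none of 6 called, stood at -1.20, 0.42 and -0.09 in BA+DMSO. Of 6 plasma cell markers only Sdc1 was bright enough to be tested, at a difference of 0.071, and Igj, Mzb1, Prdm1, Irf4 and Tnfrsf17 were not well above background on all arrays of any group. The part of cell composition in these results was not tested, and in bulk tissue a changed number of cells and a changed level per cell cannot be told apart.

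**Figure D4:**
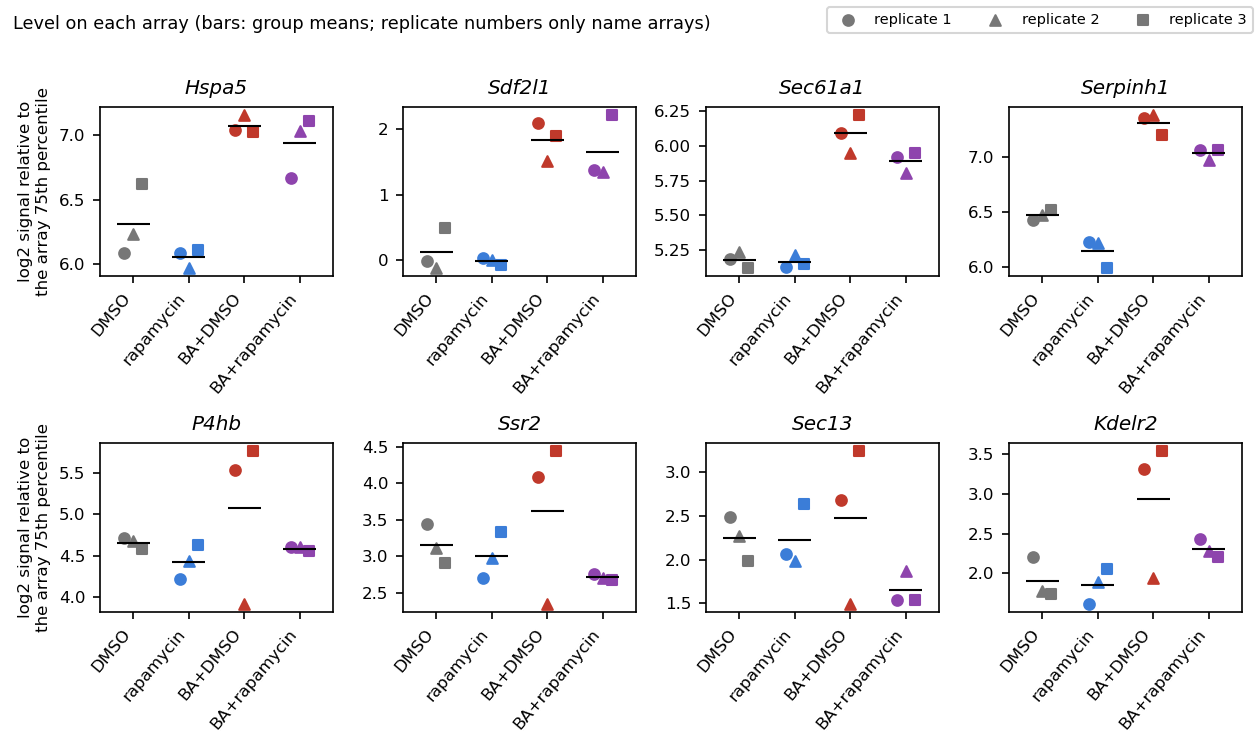
Log2 level of 8 genes on each of the 12 arrays (points; the marker shape gives the replicate number) with group means as bars. Upper row: Hspa5, Sdf2l1, Sec61a1 and Serpinh1 are above DMSO on all 3 BA+DMSO arrays. Lower row: P4hb, Ssr2, Sec13 and Kdelr2 are high on BA+DMSO 1 and 3 only.

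Of the 10 genes with an ERSE or ERSE-II, 4 were called higher after the challenge (Hspa5, Dnajb11, Creld2 and Pdia6), and so were 5 of the 20 with a window and neither pattern (Sdf2l1, Pdia4, Sec61b, Sec61g and Serpinh1). The median difference was 0.48 in the former and 0.32 in the latter. Dnajc3 and Canx, whose stretches are printed above beside those of Creld2 and Pdia6, carry the same 10 fixed letters and had differences of 0.029 and 0.085. These counts are given as a description.

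A wider set of 162 genes in 8 lists of the same pathway, none of them among the 36, was examined with 158 tested. After the challenge 23 were called higher and 5 lower, to be read beside the 10.4% and 11% of all genes. Collagen modification had 4 of 12 higher and a median difference of 0.54, led by Plod2 (1.11), a lysyl hydroxylase, and Lepre1 (0.89), a prolyl 3-hydroxylase. N-glycosylation had 4 of 19 higher, led by Dpagt1 (0.78) and Alg8 (0.73), which build the glycan donor. Folding and disulphide enzymes had 4 of 26 higher, led by Rcn1 (1.04) and Pdia5 (1.03), and here BA+DMSO 2 again read lower than its group, with Pdia5 at 2.35, 1.12 and 2.38.

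Stress sensors and their targets had 3 of 17 higher and 3 lower. The largest were Ppp1r15a (-1.01), which ends the block of translation in stress, and Dnajb2 (-0.83). Further ER-associated degradation genes had 2 of 21 higher (Derl2, 0.74, and Ube2g2, 0.65) and 1 lower. COPII coat and cargo receptors had 3 of 23 higher, led by Tmed3 (0.87) and Lman2 (0.71). Translocon, signal recognition and signal peptidase genes had 2 of 20 higher and 1 lower, with Get4 at -0.80 and Spcs2 at 0.60. The COPI coat had 1 of 20 higher (Arfgap1, 0.86).

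The effect of the challenge in rapamycin-treated mice (BA+rapamycin minus rapamycin) compares 2 other groups of mice, although all 12 arrays set the spread behind its calls. Sec61g, for example, lost its call in this comparison when any 1 of the DMSO arrays was left out. It called 13 of the 36 genes higher and 1 lower, where 19.8% of all genes were higher and 22.9% lower (42.7% in either direction). Hspa5, Dnajb11, Sdf2l1, Creld2, Calr, Pdia3, Pdia4, Pdia6, Syvn1, the 3 Sec61 subunits and Serpinh1 were higher, and Atf6 was lower. Other probes of Sec61b stood at 0.41 and -0.11 and that of Pdia6 at 0.53, none called. Other Ssr1 probes were called lower (-0.80 and -0.97) and another Ssr3 probe higher (1.22). Dnajb9 was at -0.46 by its brighter probe and 0.33 by the other, neither called. The median difference over the 36 genes was 0.23. It turned to -0.34 when arrays were scaled to their median, a scaling that moved the median of all probes from -0.085 to -0.66. Under it 1 of the 36 was called higher and 7 lower, where 8.73% and 40.8% of all genes were, and 2 of the 14 calls were kept. Groups did not overlap for 19 genes above and 6 below, against 31.2% and 36.6% of all genes. Within slide 2, with rapamycin 1 left out, 7 genes were called higher and Atf6 lower, with a median of 0.24, where 13.8% of all genes were higher and 15.4% lower. Totals without rapamycin 2, BA+rapamycin 2 or BA+rapamycin 3 were 9, 9 and 8. With the slide as a fixed block 8 of the 14 calls were kept, and with the block of arrays paired by title 3 were.

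Cell type markers moved in this comparison too. All 4 proliferation markers were called higher, with Mki67 at 4.25, as were 5 of 6 macrophage markers, a list with a median of 1.45. Of 6 fibroblast markers Col1a1 (1.57) and Col3a1 (1.48) were called higher, while Lum stood at 0.40, Pdgfra at -0.41, Dcn at -0.42 and Dpt at -0.54. Of the endothelial markers Kdr (1.73) was higher and Pecam1 (-0.87) and Tek (-0.99) lower, and of the smooth muscle markers Tagln (1.05) was higher and Des (-1.79) lower. None of the 4 adipocyte markers was called, at a list median of 1.70, and the pancreas marker Ins2 was called higher at 1.19. The part of cell composition was not tested here either.

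Sdf2l1 was again the largest, at 0.03, 0.01 and -0.07 on the rapamycin arrays and 1.38, 1.35 and 2.22 on the BA+rapamycin arrays. The difference was 1.66 (SE 0.26, adjusted p = 0.00143), or 3.16-fold, beside 1.72 on vehicle. Hspa5 read 6.09, 5.97 and 6.11 on rapamycin and 6.67, 7.04 and 7.11 on BA+rapamycin, with no overlap (0.88, SE 0.18, adjusted p = 0.00498). Serpinh1 read 6.23, 6.22 and 5.99, and then 7.07, 6.97 and 7.06 (0.89, SE 0.14, adjusted p = 0.00151). Sec61a1 read 5.13, 5.22 and 5.15, and then 5.92, 5.81 and 5.95 (0.73, SE 0.14, adjusted p = 0.00358). These 4 genes and Calr (0.86, SE 0.18, adjusted p = 0.0049) lay above every rapamycin array on every BA+rapamycin array and kept their calls in all 12 single omissions.

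Atf6 read 0.16, 0.24 and 0.36 on rapamycin and -0.81, -0.68 and -0.54 on BA+rapamycin. By its brightest probe it was the one gene of the 36 called lower in any comparison of the full set of arrays, at -0.93 (SE 0.20, adjusted p = 0.00541), and it kept this call in all 12 single omissions. Syvn1 read 4.36, 4.28 and 4.09, and then 4.81, 4.87 and 5.25, a difference of 0.73 (SE 0.20, adjusted p = 0.0161), lost without rapamycin 3 or BA+rapamycin 3. Xbp1 at 0.19 and Ern1 at 0.22 were not called. Of the export genes, none of which passed, Sec24d stood at -0.93, Sec13 at -0.58, Sec23b at -0.14, Kdelr3 at 0.17 and Kdelr2 at 0.46, the last with every BA+rapamycin array above every rapamycin array. For Sec24d and Sec13 every BA+rapamycin array lay below every rapamycin array. In the wider lists 25 of 158 genes (15.8%) were higher and 17 (10.8%) lower, both shares below the 19.8% and 22.9% of all genes.

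What rapamycin did in challenged mice is given by BA+rapamycin against BA+DMSO, and both groups lie wholly on slide 2. None of the 36 genes was called, where 0.305% of all genes were. Of the 36, 3 had an unadjusted p below 0.05, as did 4104 of the 20026 genes tested. The smallest were those of Syvn1 at 0.59 (SE 0.20, adjusted p = 0.173), Canx at -0.42 (SE 0.18, adjusted p = 0.239) and Ern1 at 0.53 (SE 0.24, adjusted p = 0.249). The median difference was -0.26 and 32 of the 36 lay below 0, beside a median of -0.026 and 48.2% above 0 over all genes. Groups did not overlap for Syvn1 with BA+rapamycin above, and for Canx and Serpinh1 with BA+rapamycin below, against 6.8% above and 8.08% below over all genes.

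Syvn1 read 4.67, 4.36 and 4.12 in BA+DMSO and 4.81, 4.87 and 5.25 in BA+rapamycin. Canx read 5.0, 4.88 and 5.45 and then 4.67, 4.56 and 4.85, and Ern1 -0.34, 0.41 and -0.03 and then 0.59, 0.73 and 0.29. In Ern1 the lowest challenged array with rapamycin lay below the highest one without it. The largest differences belonged to genes that were split within BA+DMSO, with Ssr2 at -0.91 (SE 0.44, adjusted p = 0.263), Sec13 at -0.83 (SE 0.38, adjusted p = 0.249) and Kdelr3 at -0.71 (SE 0.36, adjusted p = 0.276). Sec13, for example, read 2.68, 1.49 and 3.25 in BA+DMSO and 1.54, 1.87 and 1.53 in BA+rapamycin, so that BA+DMSO 2 lay below all 3 BA+rapamycin arrays.

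A single array decided the count of this comparison. Without BA+DMSO 2, 17 of the 36 genes were called lower and 1, Ern1, higher, where 24% of all genes were lower and 17% higher. This omission too was chosen with the values in view. It left BA+DMSO arrays with a brightness of 149 and 282 against 81.0 to 121 in BA+rapamycin, and the part of brightness was not tested. With all arrays and brightness as a covariate, none of the 36 was called. For 23 of the 36, BA+DMSO 1 and 3 both lay above all 3 BA+rapamycin arrays, a pattern of 31.6% of all genes, and for 2 of the 36 all 3 BA+DMSO arrays did, against 8.08%. The 17 included all 5 export genes, all 3 Ssr subunits, P4hb, Pdia3, Pdia4, Pdia6, Hsp90b1, Manf, Canx, Sel1l and Sec61b. With all arrays, the other tested probes of Ssr1, Pdia6 and Sec61b also lay below 0, but that of Ssr3 stood at 0.0094. This Ssr3 probe read 1.88, 2.42 and 1.71 in BA+DMSO, with BA+DMSO 2 the highest and not the lowest. Without that array the differences were -1.55 for Ssr2, -1.32 for Sec13, -1.20 for Kdelr3, -1.12 for Kdelr2, -1.12 for Sec24d, -1.08 for Ssr3 and -1.07 for P4hb. Of the 13 genes above DMSO on all 3 BA+DMSO arrays, Pdia3 (-0.52), Pdia4 (-0.65), Pdia6 (-0.57) and Sec61b (-0.62) were called lower in this fit. The others were not called, among them Hspa5 at -0.095, Creld2 at 0.020, Serpinh1 at -0.24 and Sec61a1 at -0.27.

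No cell type marker was called between BA+rapamycin and BA+DMSO with all arrays. All 4 proliferation markers lay below 0. Mki67 was at -1.18 (SE 0.39, adjusted p = 0.167), reading 2.39, 2.02 and 2.2 in BA+rapamycin beside 4.35, 2.35 and 3.45 in BA+DMSO. The macrophage list had 3 of 6 markers below 0 and a median of 0.066, and in one of them, Emr1, at -0.81 (adjusted p = 0.232), the groups did not overlap. In Mki67 and Emr1, as in most of the 36 genes, BA+DMSO 2 was the lowest of its group, and the part of cell composition in the difference was not tested.

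**Figure D5:**
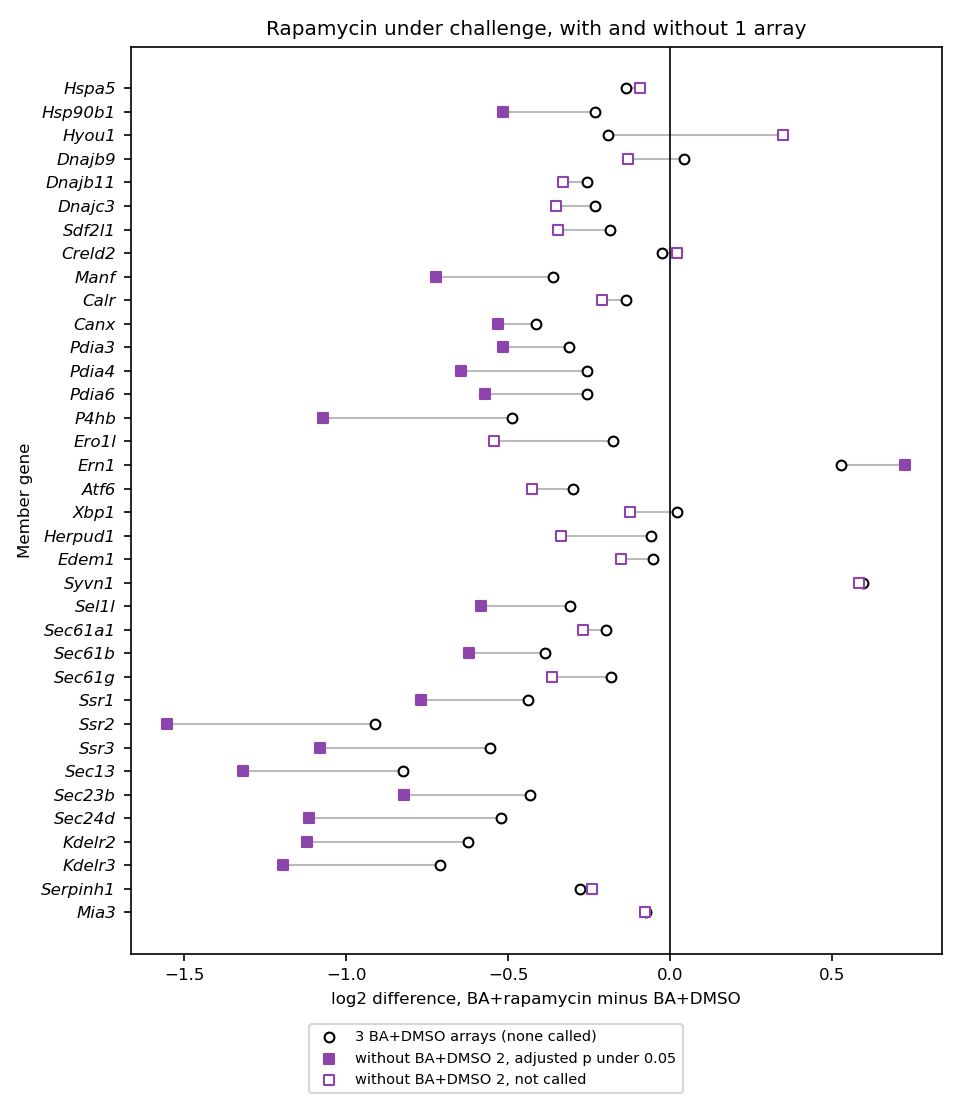
Log2 difference between BA+rapamycin and BA+DMSO for each of the 36 genes with all arrays (circles) and without BA+DMSO 2 (squares; filled where the adjusted p was below 0.05). No circle passed the test. Without that array 18 squares are filled, all left of 0 except that of Ern1.

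Rapamycin alone (rapamycin minus DMSO) called none of the 36 genes and 0.00499% of all genes. Of the 36, 4 had an unadjusted p below 0.05: Dnajb9 at 0.65 (SE 0.19, adjusted p = 0.798), Calr at -0.44, Pdia3 at -0.45 and Serpinh1 at -0.33, the last 3 with an adjusted p of 1. Such an unadjusted p was found for 888 of all 20026 genes tested. Dnajb9 read 1.04, 1.15 and 1.23 in DMSO and 1.78, 1.53 and 2.05 on rapamycin. A median of -0.096 was found, with 27 of the 36 below 0, beside a median of -0.014 and 47.4% above 0 over all genes. Groups did not overlap for 3 genes above (Dnajb9, Dnajc3 and Herpud1) and 6 below (Hsp90b1, Calr, Pdia3, Pdia4, Pdia6 and Serpinh1), against 10.6% and 11.8% of all genes. Cell type markers were not called either. All 4 proliferation markers lay below 0, with Mki67 at -1.12 (SE 0.39) and its groups not overlapping. All 3 neutrophil markers tested (median 0.87), 5 of 6 macrophage (0.48), 4 of 6 fibroblast (0.48) and 3 of 4 endothelial markers (0.39) lay above 0. The part of cell composition was not tested. Within slide 1, where rapamycin 1 is the only treated array, the median was -0.17, a value that describes this 1 array and has no spread of its own.

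Whether the effect of rapamycin differed between challenged and unchallenged mice was tested by the interaction. None of the 36 was called and 0% of all genes were, with 2 of the 36 at an unadjusted p below 0.05, namely Syvn1 at 0.63 (SE 0.29) and Dnajb9 at -0.60 (SE 0.27), both with an adjusted p of 0.737. Over all 20026 genes tested, 1204 had an unadjusted p below 0.05. The median of the 36 was -0.18, beside -0.036 over all genes. Without BA+DMSO 2, 8 of the 36 (Dnajb9, P4hb, Ssr2, Ssr3, Sec13, Sec23b, Kdelr2 and Kdelr3) were called with a negative interaction, from -1.40 for Ssr2 to -0.72 for Sec23b, where 7.41% of all genes were. Of these genes, Ssr3 and Dnajb9 had another tested probe that went the other way. With all arrays its interaction was 0.19 for Ssr3 and 0.079 for Dnajb9, not called, beside -0.45 and -0.60 at the brighter probe. In the wider lists none of 158 genes was called for rapamycin under challenge, rapamycin alone or the interaction.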

How the data were processed

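RNA of 12 mouse aortas was labelled with Cy3 and hybridised by the authors to 1-colour Agilent SurePrint G3 Mouse GE v2 8x60K arrays. The deposited scanner files hold processed signal as a background-subtracted intensity on a linear scale and, as other columns, flags of 0 or 1 per spot. The deposited matrix holds quantile-normalized intensity and served as an alternative. Feature Extraction is named in version 10.7.1.1 per the file headers and in version 9.5.1.1 in the submitters' processing notes.

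Control and outlier spots were removed, log2 intensities of the spots of a probe were averaged, and the 75th percentile of each array was subtracted. Probes entered the test when, on each of the 3 arrays of some group, a share of 0.5 or more of their spots exceeded background clearly, and 27801 did. All 12 arrays were fitted in one limma 3.58.1 model of group means (R 4.3.3, with the data.table package in 1.17.8), with two-sided tests and Benjamini-Hochberg adjustment within each contrast over all probes. Each gene stood by its tested probe with the highest mean, and 7 of the 36 genes had more than 1. Fold changes are linear ratios, computed from the differences on the scaled log2 scale.

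Every gene of the set is accounted for. Array values were to be given for Hspa5, Xbp1, Ern1, Atf6, the 10 largest differences called for the challenge, the 6 largest called for rapamycin under challenge (with none called, the 3 smallest p) and all called for rapamycin alone or the interaction. For each wider list the 2 largest called differences were named. Other genes whose array values are printed were chosen after those values were seen. The members and lists were chosen with earlier results of these data known. Promoter windows came from RefSeq tables. Replicates are numbered in order of deposition, each group is 3 mice per the series record, and their number limits the precision.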

Additional observations from a re-analysis of the deposited data

How the results depend on the processing

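Each result was recomputed under up to 30 alternatives, of which 12 leave out 1 array each. For the challenge, the count of 11 called genes became 1 with scaling to the array median, 5 with normexp background correction (offset 50), 5 with no filter on dim probes, 0 with the slide as a fixed block, 17 (16 higher and 1 lower) with the slide as a random block, 1 with only the 2 groups of the contrast, 23 (21 higher and 2 lower) with gene-by-gene array weights, 18 with a brightness covariate and 0 by the methods' rule (p under 0.01 before adjustment, fold over 4 or under 0.25). Under rapamycin the count of 14 became 8 (1 higher and 7 lower) with the array median, 8 with the slide as a fixed block, 22 (17 higher and 5 lower) with only its 2 groups, 23 (16 higher and 7 lower) with array weights and 0 by the methods' rule. It became 10 with normexp, of which 4 were among the 14, and 11 with the brightness covariate, of which 7 were. Of the 12 arrays, BA+DMSO 2 had the lowest array weight (0.108) and BA+DMSO 3 the next lowest (0.203). The fit with array weights called 14 genes (13 lower) for rapamycin under challenge and 2 for rapamycin alone. The replicate block, which pairs the 2 DMSO and 2 rapamycin arrays whose titles share both a date and a number, left 1 call after the challenge on vehicle and 3 after that on rapamycin, and changed no other count. Deviations of the 2 pairs correlated at 0.17 and -0.35, and the labels do not say what a shared date and number mark, so the block was kept as an alternative. DMSO 1 shares its date and number with BA+rapamycin 3, a pair that no contrast compares directly. The date in the sample titles as a random block (estimated correlation 0.50), in which BA+DMSO 2 and 3, with no date in their titles, each formed a block of their own, left 13 calls for the challenge under rapamycin, with Sec61g lost at 0.46, and changed no other count.

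Leaving out 1 array at a time, counts ran from 4 to 21 for the challenge, 0 to 18 for rapamycin under challenge, 8 to 21 for the challenge under rapamycin and 0 to 8 for the interaction, each maximum being the fit without BA+DMSO 2, and the median for rapamycin alone ran from -0.20 to -0.070. The median for the challenge lay between 0.17 and 0.76, and for rapamycin under challenge between -0.58 and -0.094, in every setting. For the challenge under rapamycin it was 0.41 with the percentile over probes above background on all arrays, -0.34 with the array median, 0.059 with normexp, 0.76 with the brightness covariate and 0.41 with the mean of all probes of a gene. The interaction median turned to 0.050 with the brightness covariate. The array median moved the median of all probes from -0.045 to -0.31 for the challenge.

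Of 868 recomputed values of 31 single results, 670 kept direction and side of the threshold, 182 fell short of it, 7 passed it and 9 changed sign. The sign changes were those of Xbp1 for the challenge, in 7 of its 28 alternatives, and, with the array median, those of Dnajb11 (-0.00068) and Sec61g (-0.026) for the challenge under rapamycin. Xbp1 stood at -0.049 with quantile normalization, -0.045 with the deposited matrix, -0.20 with the array median, -0.20 with normexp and -0.015 with the slide block. With single arrays left out it ran from -0.080 to 0.20, so that not every omission turned its sign. The cause was not tested. Low signal limits Ero1l, which was not well above background on 1 array in each challenged group.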
